A study of Rattus norvegicus with 8 samples.

Results

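In rat hearts kept under chronic hypoxia, 114 genes differed widely from one hypoxic heart to the next while staying steady between normoxic hearts. They were chosen from their own values, by a rule on CPM (a gene's read count times 1000000 over the total count of its library). A gene had to reach a mean of at least 1 CPM over the 8 libraries. Its highest normoxia value had to be under 3 times its lowest normoxia value, and its highest hypoxia value at least 6 times its lowest hypoxia value. Of 21549 gene IDs, 12671 reached the mean. Of these, 12485 were steady in normoxia, 160 passed the hypoxia condition, and the 114 members passed both, which is 0.900% of the 12671. Because the rule used the CPM of all 8 libraries, the spread of the members and the libraries in which they stood high or low are given as a description, without a test.

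The study sequenced RNA from the hearts of 3-month-old Sprague Dawley rats, with 4 libraries labelled normoxia (the controls) and 4 labelled chronic hypoxia. No genotype or agent other than the oxygen condition is given, and the labels describe 4 rats per condition, so a library stands for 1 rat here. The oxygen level, how long it was held, the rats' sex and the region of the heart were not given in the sources used here. Libraries are called normoxia 1 to 4 and hypoxia 1 to 4 by the numbers in their labels, and these numbers are used here only to name animals.

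Long exposure to low oxygen is known to stabilise hypoxia-inducible transcription factors, which act on genes of glycolysis, red cell production and vessel growth, and to raise pressure in the lung arteries, so that the right ventricle thickens. Sprague Dawley rats are an outbred stock, so animals of one group are not genetically identical. Heart tissue holds cardiomyocytes, fibroblasts, endothelial cells, smooth muscle and blood cells, and in such bulk samples fewer cells of a type and less RNA per cell cannot be told apart.

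The deposited tables list Ensembl gene IDs with no names, and 0 of the 21549 IDs matched the gene table used here. The members are therefore told apart by the length of their gene model, which differs between all 114 and was returned as a whole number by dividing the deposited count by the deposited FPKM (counts scaled by model length and library total) and by the library total. This length is used as a name here ("the 7952 bp gene"). Known functions, and markers of atrial, ventricular, vascular, fat, lung, blood or other cells, could not be set beside the members, and the part of cell makeup in their spread was not tested. The labelled tissue could not be checked against heart markers for the same reason.

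The libraries held between 26229304 and 32160710 counts, so that 3 counts, the upper limit that a count of 0 allows and the floor used here, equal 0.0933 to 0.114 CPM. The members together took 0.342 to 0.401% of the counts in normoxia and 0.189 to 0.302% in hypoxia. Over all genes, hypoxia 1 and 2 lay at 33.4 and 27.0 on the second principal component, which held 21.5% of the variance. Hypoxia 3 and 4 lay at -25.8 and -21.3 on it, and the normoxia libraries between -7.37 and -0.627. Weighted by counts, gene models averaged 2596 to 2628 bp in normoxia and 2268, 2261, 2375 and 2220 bp in hypoxia 1 to 4. The part of these differences in the members' spread was not tested.

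Within hypoxia, the highest library exceeded the lowest by a median of 8.85 times over the members, against 1.42 times over all 12671 genes. In normoxia the same ratio had a median of 1.56 over the members and 1.20 over all genes. The hypoxia ratio lay from 6 to under 8 in 46 members, from 8 to under 10 in 21, from 10 to under 20 in 28, and at 20 or above in 14. In the other 5 members the lowest hypoxia library had a count of 0. The members just inside the limit had ratios of 6.01 (2549 bp), 6.01 (2047 bp) and 6.04 (4320 bp), and the nearest genes outside it had 5.90, 5.88 and 5.87.

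**Figure D1:**
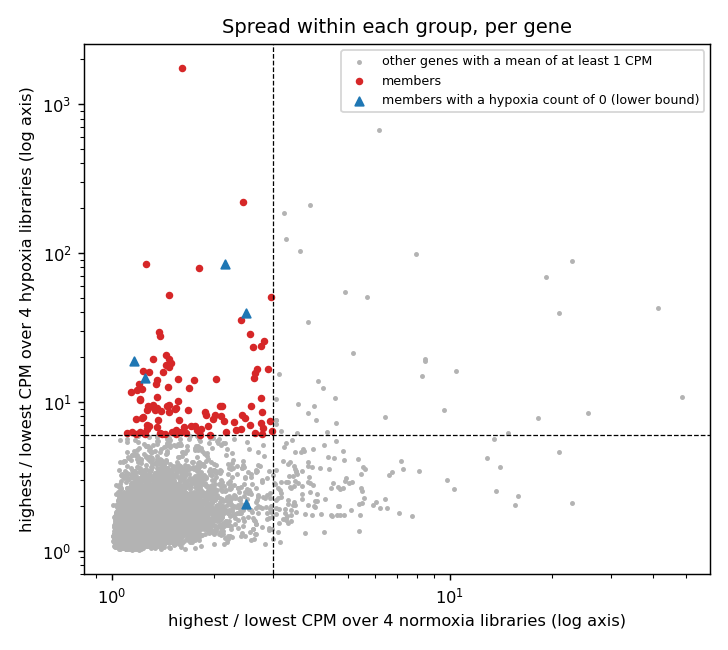
Highest over lowest CPM within normoxia (horizontal, log axis) and within hypoxia (vertical, log axis) for each gene averaging 1 CPM or more. Dashed lines mark the limits of 3 and 6. Triangles mark the 5 members with a hypoxia count of 0, drawn at the lower bound that 3 counts give. The 114 members fill the upper left field, except the 255 bp gene, whose lower bound of 2.04 lies under the line at 6.

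Many of these ratios rest on few counts. The lowest hypoxia count had a median of 18 over the members and was under 10 in 40 of them, while the highest had a median of 180.5. The 95% interval of the ratio, which covers counting error only and takes no account of the highest and lowest library being picked after the fact, had a lower limit above 3 in 107 of 114 members and above 6 in 56. The members were also less abundant than other genes, with a median mean level of 2.88 CPM against 16.0 CPM. Of the members, 74 (64.9%) had a mean under 5 CPM, as had 23.5% of all genes. The rule was met by 2.49% of genes under 5 CPM and by 0.412% of those at or above it.

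Each of the 4 hypoxic hearts held the highest or the lowest value for some members. Hypoxia 1 was the highest of the hypoxia libraries for 41 members, hypoxia 4 for 29, hypoxia 3 for 27 and hypoxia 2 for 17. The lowest value fell in hypoxia 2 for 33 members, in hypoxia 3 for 32, in hypoxia 1 for 25 and in hypoxia 4 for 24. Among all 12671 genes, hypoxia 4 was the highest library in 11.3% and the lowest in 35.3%, against 25.4% and 21.1% of the members. Hypoxia 3 was the highest in 38.8% of all genes and in 23.7% of the members, and the lowest in 14.4% and 28.1%. When a hypoxia library was left out, 76, 80, 85 and 80 of the 114 members still had a ratio of at least 6 without hypoxia 1, 2, 3 and 4 respectively. In 23 members the ratio stayed at 6 or above whichever hypoxia library was left out. Without hypoxia 1 the whole rule, mean included, was met by 75 genes, 73 of them members.

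To describe which libraries differed, the 4 hypoxia values of each gene were ordered on the log2(CPM + 0.1) scale and divided at the largest step between neighbours. In 40 members 1 library stood above the step, in 42 members 2 did, and in 32 members 3 did. The 3 most frequent patterns were hypoxia 3 and 4 high together (19 members), hypoxia 4 high alone (18) and hypoxia 1 and 2 high together (18). Of the 42 members divided into 2 and 2 libraries, 37 (88.1%) separated hypoxia 1 and 2 from hypoxia 3 and 4, as did 59.8% of all genes divided in that way. Hypoxia 1 and 3 stood together above the step in 3 members (2.63%, against 6.47% of all genes). Hypoxia 2 and 4 did so in 0 members, against 0.521% of all genes. Hypoxia 4 stood alone above the step in 15.8% of the members and 3.15% of all genes, and hypoxia 3 alone in 4.39% and 15.3%. The shares over all genes, here and for the highest and lowest library, follow library totals alone. TMM scaling factors from edgeR, which adjust those totals, were 0.995 in hypoxia 3 and 0.895 in hypoxia 4. The largest step had a median of 1.22 times over all genes and 3.93 times over the members. Shares over all genes were not computed with other scalings, and nothing is read from the differences.

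**Figure D2:**
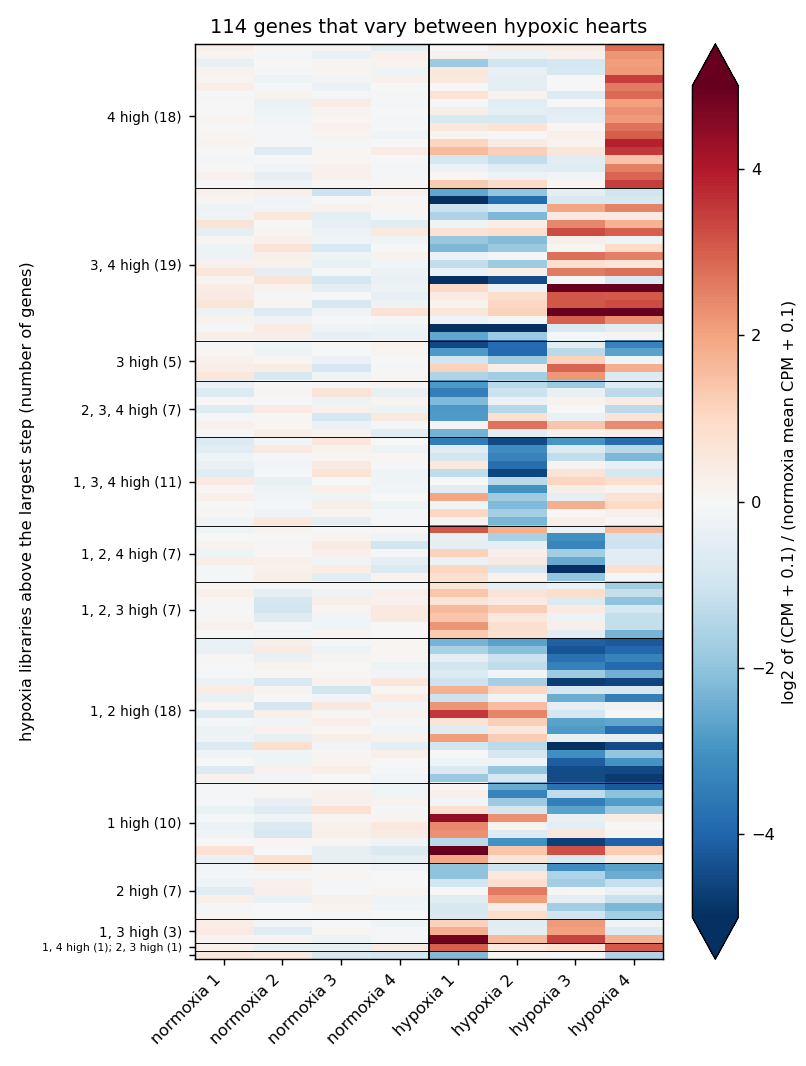
Level of each member (1 line per gene) in each library, as log2 of (CPM + 0.1) over (normoxia mean CPM + 0.1), with lines grouped by the hypoxia libraries above the largest step and the number of genes in brackets. The normoxia columns are pale throughout; in the hypoxia columns the largest blocks are the 18 genes high in hypoxia 4, the 19 high in hypoxia 3 and 4, and the 18 high in hypoxia 1 and 2.

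The 18 genes with hypoxia 4 alone above the step stood high in that heart and, at the median, near their normoxic level in the other 3. In all 18, hypoxia 4 lay above the highest normoxia library, by 2.47 to 13.4 times with a median of 5.34. Their summed level was 1061 CPM in hypoxia 4, 192, 151 and 139 CPM in hypoxia 1, 2 and 3, and 138 to 172 CPM in normoxia. The median log2 ratio to the normoxia mean was 2.64 in hypoxia 4, and 0.17, -0.32 and 0.00 in hypoxia 1, 2 and 3.

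The most abundant gene of this set, the 5269 bp gene, measured 32.9, 21.3, 32.5 and 26.4 CPM in normoxia and 30.2, 23.3, 25.5 and 213 CPM in hypoxia 1 to 4. Hypoxia 1, 2 and 3 fell inside the normoxia range, and hypoxia 4 was the sole library outside it. The 2928 bp gene read 17.6 to 22.3 CPM in normoxia and 15.4, 12.9, 12.6 and 111 CPM in hypoxia. For this gene the other 3 hypoxic hearts lay below every normoxic heart while hypoxia 4 lay above them all. The 1973 bp gene had 15.4 to 18.6 CPM in normoxia and 44.4, 34.0, 19.1 and 195 CPM in hypoxia, so that all 4 hypoxic hearts exceeded the normoxic ones and hypoxia 4 stood furthest out. The same order of groups held for the 3315 bp gene (5.99 to 7.22 CPM in normoxia; 13.8, 8.58, 7.32 and 96.7 CPM in hypoxia) and the 451 bp gene (4.61 to 9.18 CPM; 21.4, 16.3, 10.7 and 82.3 CPM). Of the 18 genes, the 3 low libraries were all above the normoxia range in 3, all below it in 4, all within it in 2 and mixed in the rest.

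The 19 genes with hypoxia 3 and 4 above the step held genes that were low in hypoxia 1 and 2, genes that were high in hypoxia 3 and 4, and some that were both. In 10 of them hypoxia 1 and 2 both lay below the normoxia range, and in 11 hypoxia 3 and 4 both lay above it. The median log2 ratio to the normoxia mean was -1.09 and -0.78 in hypoxia 1 and 2, and 1.96 and 1.72 in hypoxia 3 and 4. The summed level was 99.5, 154, 873 and 891 CPM in hypoxia 1 to 4, against 557 to 861 CPM in normoxia.

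The widest spread of any member belonged to the 7952 bp gene of this set. Its normoxia libraries held 217, 313, 209 and 194 CPM, its hypoxia libraries 3 and 4 held 137 and 163 CPM, and hypoxia 1 and 2 held 0.172 and 0.0933 CPM, from 5 and 3 counts. The ratio of hypoxia 4 to hypoxia 2 was 1749, with a counting interval of 598 to 8483. All 4 hypoxic hearts lay below all 4 normoxic ones, 2 of them near the floor and 2 within a short distance of the normoxia range. On the length-scaled scale it stood at 24.5 to 39.3 FPKM in normoxia and at 0.0216, 0.0117, 17.2 and 20.5 FPKM in hypoxia 1 to 4.

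The 2211 bp gene was likewise low in hypoxia 1 and 2, with 17.8, 25.9, 8.74 and 13.0 CPM in normoxia and 0.309, 0.653, 15.7 and 9.63 CPM in hypoxia. Here hypoxia 3 and 4 fell inside the normoxia range and hypoxia 1 and 2 far below it. The 1491 bp gene had 4.36 to 5.50 CPM in normoxia and 0.0344, 0.249, 2.90 and 2.79 CPM in hypoxia, its lowest value being a single count. The abundant 660 bp gene had 478, 468, 293 and 310 CPM in normoxia and 63.5, 110, 364 and 427 CPM in hypoxia, so only hypoxia 1 and 2 left the normoxia range.

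In the opposite direction, the 4475 bp gene was close to the floor in normoxia, at 0.104 to 0.256 CPM, and read 0.447, 0.124, 27.5 and 15.8 CPM in hypoxia. Its ratio of 221, with a counting interval of 86.1 to 814, was the next widest after that of the 7952 bp gene among members with no count of 0. The 4787 bp gene had 17.3 to 22.1 CPM in normoxia and 16.6, 18.5, 157 and 98.4 CPM in hypoxia, so that hypoxia 3 and 4 lay far above the range, hypoxia 2 within it and hypoxia 1 just below it. The 3215 bp gene (1.58 to 2.91 CPM in normoxia) read 2.92, 4.01, 19.3 and 18.6 CPM in hypoxia.

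The 18 genes with hypoxia 1 and 2 above the step were mostly genes that were low in hypoxia 3 and 4. Both of these hearts lay below the normoxia range in 14 of the 18, and hypoxia 1 and 2 themselves lay both below it in 8 and both above it in 5. The median log2 ratio to the normoxia mean was -0.65 and -0.50 in hypoxia 1 and 2, and -3.22 and -3.41 in hypoxia 3 and 4. Their summed level was 1657 to 2040 CPM in normoxia and 587, 1027, 86.0 and 74.9 CPM in hypoxia 1 to 4, most of it from 1 gene.

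That gene, of 1573 bp, was the most abundant member. It measured 1904, 1485, 1616 and 1482 CPM in normoxia and 448, 926, 73.4 and 58.7 CPM in hypoxia, or 942 to 1210 FPKM against 285, 589, 46.7 and 37.3 FPKM. Every hypoxic heart lay below every normoxic heart, and the distance between hypoxia 2 and hypoxia 4 was 15.8 times. The 2329 bp gene was likewise lowest in hypoxia 3 and 4, at a lower level, with 48.6, 90.0, 98.7 and 73.6 CPM in normoxia and 47.4, 20.5, 3.39 and 3.34 CPM in hypoxia. The 721 bp gene had 28.7 to 35.6 CPM in normoxia and 28.2, 29.0, 1.79 and 4.01 CPM in hypoxia. For it hypoxia 1 and 2 lay at or just below the normoxia range and hypoxia 3 and 4 far under it. The 5954 bp gene was lower again in hypoxia 3 and 4, at 0.419 and 0.803 CPM, against 10.7 and 8.02 CPM in hypoxia 1 and 2 and 12.6 to 35.4 CPM in normoxia.

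**Figure D3:**
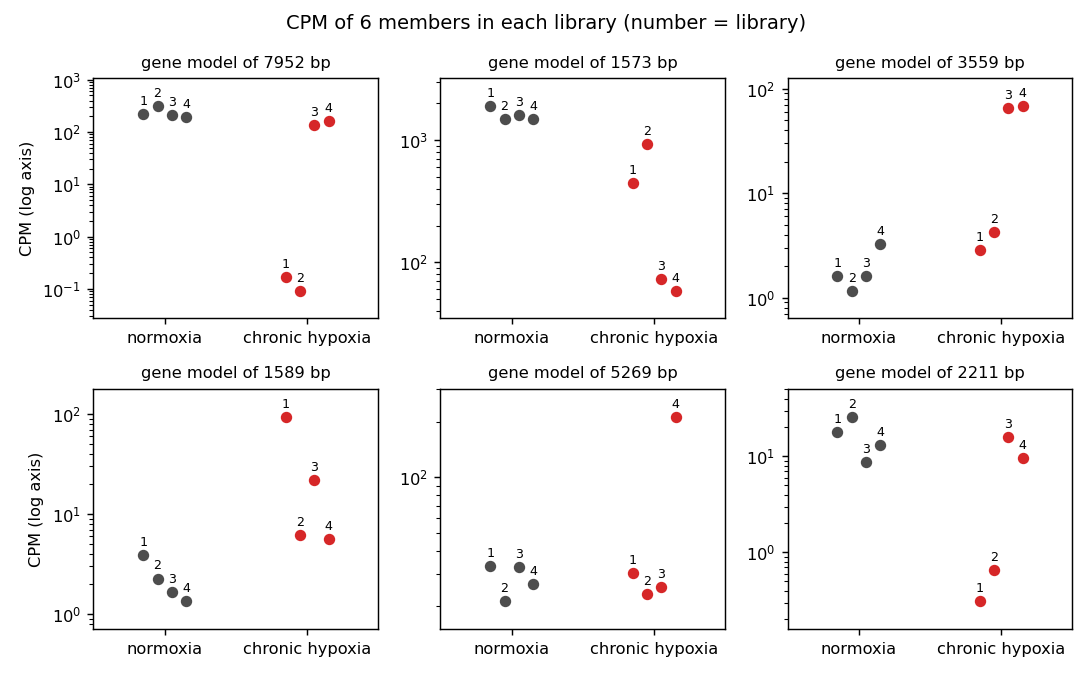
CPM (log axis) of 6 members in the 4 normoxia (grey) and 4 hypoxia (red) libraries, each point 1 library with its number above it. The 7952, 2211 and 1573 bp genes are lowest in 2 hypoxic hearts each (1 and 2, 1 and 2, and 3 and 4), and the 5269 bp gene is high in hypoxia 4 alone.

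Hypoxia 1 stood alone above the step in 10 members and lay above the normoxia range in 7 of them. The 672 bp gene had 82.2, 180, 79.4 and 77.3 CPM in normoxia and 404, 160, 62.0 and 132 CPM in hypoxia, so its spread in normoxia came from 1 library. The 1888 bp gene had 44.5 to 53.9 CPM in normoxia and 19.5, 6.13, 1.87 and 2.95 CPM in hypoxia, where even the high library lay below the normoxia range. Hypoxia 2 stood alone in 7 members and above the normoxia range in 6. Among them the 2010 bp gene had 81.2 to 89.7 CPM in normoxia and 49.8, 156, 42.4 and 25.4 CPM in hypoxia. Hypoxia 3 stood alone in 5 members, all of low level, with a summed level of 25.7 CPM in that heart.

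In the 32 members with 3 libraries above the step, 1 hypoxic heart was set apart below the other 3. In 30 of them that low heart lay below the normoxia range. Hypoxia 2 was the low heart in 11, and hypoxia 1, 3 and 4 in 7 each. The other hypoxic hearts could be below the range as well. All 3 of them were so in 3 members with hypoxia 2 low, 1 with hypoxia 1 low and 1 with hypoxia 3 low. The 1702 bp gene read 238 to 419 CPM in normoxia and 592, 382, 85.8 and 331 CPM in hypoxia, with hypoxia 3 low and hypoxia 1 above the range. The 2549 bp gene read 55.3 to 108 CPM in normoxia and 82.4, 15.5, 92.8 and 78.8 CPM in hypoxia, with hypoxia 2 as the sole library outside the range. The 461 bp gene went from 57.1 to 70.2 CPM in normoxia to 155, 107, 43.8 and 12.7 CPM in hypoxia, which put hypoxia 1 and 2 above the range and hypoxia 3 and 4 below it. The 1477 bp gene had 1.31 to 2.37 CPM in normoxia and a single count in hypoxia 2 (0.0311 CPM), against 1.28 to 2.48 CPM in the other hypoxic hearts.

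The 3130 bp gene was high in hypoxia 1 and 3, at 210 and 76.0 CPM, and lower in hypoxia 2 and 4, at 22.7 and 25.4 CPM. All 4 lay above its normoxia range of 6.13 to 8.12 CPM. In the 4767 bp gene hypoxia 1 was the low heart, at 15.9 CPM, inside the normoxia range of 11.7 to 16.8 CPM, and hypoxia 2, 3 and 4 lay above it at 96.3, 38.1 and 74.4 CPM.

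Against the normoxia range, the members moved both ways. Hypoxia 1 lay above it for 42 members, within it for 20 and below it for 52. The same counts were 37, 19 and 58 in hypoxia 2, 34, 27 and 53 in hypoxia 3, and 45, 18 and 51 in hypoxia 4. In 54 members (47.4%) at least 1 hypoxic heart lay above the range and at least 1 below it, against 20.9% of all genes. In 26 members (22.8%) hypoxic hearts left the range only upward and in 34 (29.8%) only downward, against 24.1% and 52.6% of all genes. The wide spread that chose the members bears on these shares, and nothing is read from them.

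**Figure D4:**
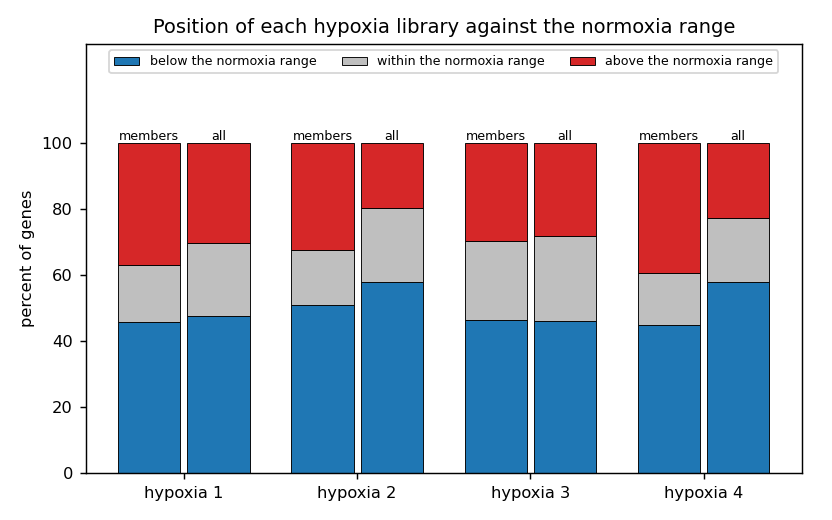
Percent of genes lying above, within and below the range of the 4 normoxia libraries in each hypoxia library, for the 114 members (left bars) and all genes averaging 1 CPM or more (right bars). Among the members 29.8 to 39.5% lay above the range and 44.7 to 50.9% below it.

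In 27 members at least 1 hypoxic heart was under 0.1 times the lowest normoxia value. This occurred for 14 members in hypoxia 3, for 14 in hypoxia 4, for 10 in hypoxia 2 and for 6 in hypoxia 1. In 9 members a hypoxic heart exceeded 10 times the highest normoxia value, 5 in hypoxia 4, 4 in hypoxia 1, 2 in hypoxia 3 and 0 in hypoxia 2. The same counts were not made over all genes. The wide spread that chose the members bears on them, and nothing is read from them. The 884 bp gene had 2.76 to 5.96 CPM in normoxia and 9.59, 2.52 and 8.28 CPM in hypoxia 1, 2 and 4, but no count in hypoxia 3, where 3 counts would be 0.114 CPM. The 1931 bp gene had 1.58 to 1.84 CPM in normoxia and 1.82, 0.218, 0.0381 and 0 CPM in hypoxia, so hypoxia 1 alone stayed at the normoxic level.

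Chronic hypoxia was compared with normoxia in a fit over all genes (edgeR's quasi-likelihood test with Benjamini-Hochberg adjustment). Of the members, 112 had enough counts to be tested, and 29 had an adjusted p under 0.05, 19 of them higher in hypoxia and 10 lower. Over all 14214 genes tested, 33% were called, 17.7% higher and 15.3% lower. Because the rule chose members by the spread of these same counts, nothing is read from the difference. The SE of the members' log2 fold changes had a median of 0.59, against 0.14 over all genes, and their log2 fold changes had a median of 0.31 against 0.01. Each SE given here was derived from the test, as the absolute log2 fold change over the square root of its F statistic. It was not estimated separately.

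The split of the calls into higher and lower depended on the tool. DESeq2 called 23 members higher and 12 lower, against 17.4% and 14.6% of all genes. With limma-voom, 25 members were called, 4 higher and 21 lower. Both edgeR and limma-voom called 14 members in the same direction and 0 in opposite directions. Over all genes limma-voom called 16.6% higher and 16.2% lower. The sign of the log2 fold change differed in 13 of 112 members, each positive in edgeR and negative in limma-voom, and the median was -0.24 in limma-voom. With library totals alone as the scaling, 17 were called higher and 15 lower, against 10% and 27.2% of all genes. Limma on log2(FPKM + 1) called 5 higher and 16 lower of 77 members tested, against 10.1% and 31.4% of all genes. Leaving out normoxia 2, 3 or 4 lowered the calls in edgeR to 19, 12 higher and 7 lower each time. Calls over all genes fell as well, from 4693 to 3489, 3315 and 3373.

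Calls were also counted by the position of the hearts. Of the members whose hypoxic hearts left the normoxia range only upward, 15 of 25 tested (60%) were called higher, as were 74.1% of all genes of that class with a mean of 1 CPM or more. Of those leaving it only downward 10 of 34 (29.4%) were called lower, against 31.0% of all such genes. Of 53 tested members with hearts on both sides 4 (7.55%) were called, all higher, against 4.42% of all such genes. On CPM by library totals, all 4 hypoxic hearts lay above all normoxic ones in 8 members. This was 7.14% of those tested, against 9.32% of all genes tested. All 4 hypoxic hearts lay below all normoxic ones in 19 members (17.0% against 27.6%). Of the genes with hypoxia 3 and 4 above the step, 8 of 18 tested (44.4%) were called higher and 0 lower, against 22.9% and 9.58% of all genes with that pattern. With hypoxia 4 alone above it, 4 of 18 (22.2%) were called higher and 0 lower, against 34.6% and 4.01%. With hypoxia 1 and 2 above it, 1 of 18 (5.56%) was called higher and 4 (22.2%) lower, against 15.6% and 14.5%. The rule chose the members on the values that also set these classes, and nothing is read from the differences.

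The largest called rise was that of ENSRNOG00000020263, the 3559 bp gene. It had 1.60, 1.17, 1.60 and 3.23 CPM in normoxia and 2.85, 4.29, 65.0 and 68.0 CPM in hypoxia, or 1.90 ± 0.909 against 35.0 ± 36.4 CPM (SD, n = 4 each). Hypoxia 3 and 4 carried the rise, and hypoxia 1 fell inside the normoxia range. The difference was 4.37 ± 1.02 (log2 fold change and SE; adjusted p = 0.00990 by edgeR). The call was lost in limma-voom (adjusted p = 0.148) and in limma on log2(FPKM + 1) (adjusted p = 0.0599).

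ENSRNOG00000008015, the 1589 bp gene, had 3.90, 2.27, 1.67 and 1.35 CPM in normoxia and 93.9, 6.16, 21.8 and 5.65 CPM in hypoxia, or 2.30 ± 1.14 against 31.9 ± 42.0 CPM (SD, n = 4 each). All hypoxic hearts lay above all normoxic ones, hypoxia 1 by far the most. The log2 fold change was 3.92 ± 0.89 (SE; adjusted p = 0.00875 by edgeR), and 2.42 without hypoxia 1. In limma-voom the adjusted p was 0.0651.

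The largest called falls were in scarce genes. ENSRNOG00000037364, the 255 bp gene, had 1.31, 1.95, 3.27 and 2.15 CPM in normoxia and only 3, 0, 5 and 2 counts in hypoxia. It is a member through its count of 0, since the highest hypoxia value was only at least 2.04 times the floor, and the log2 fold change of -4.44 ± 0.55 (SE; adjusted p = 6.09e-04 by edgeR) rests on hypoxia counts around that floor. ENSRNOG00000015581, the 12429 bp gene and the longest member, had 2.75, 4.26, 3.34 and 3.73 CPM in normoxia and 0.619, 0.466, 0.114 and 0.0963 CPM in hypoxia. Every hypoxic heart was below every normoxic one, and the log2 fold change was -3.24 ± 0.45 (SE; adjusted p = 9.91e-04 by edgeR). The counting interval of its hypoxia ratio of 6.43 ran from 1.88 to 34.1.

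Several of the members described above were not called. The 7952 bp gene had a log2 fold change of -1.45 ± 1.33 (SE; adjusted p = 0.427 by edgeR), and the 1573 bp gene one of -1.91 ± 0.75 (adjusted p = 0.0752), although in both every hypoxic heart lay below every normoxic heart. The 5269 bp gene had 1.59 ± 0.70 (adjusted p = 0.105 by edgeR). The 3130 bp gene, high in hypoxia 1 and 3, was called higher at 3.65 ± 0.65 (adjusted p = 0.00298 by edgeR). The 4475 bp gene did not pass the filter on low counts and was not tested.

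The members' gene models had a median length of 2129.5 bp, against 2414 bp over all 12671 genes. By pattern, the median was 3559 bp where hypoxia 3 and 4 were high, 2687 bp where hypoxia 4 alone was high, and 1775.5 bp where hypoxia 1 and 2 were high. It was 1459 bp where hypoxia 1 alone was high, 2010 bp where hypoxia 2 alone was (7 members) and 3550 bp where hypoxia 3 alone was (5 members). In the 37 members of the other patterns it was 2047 bp. Of the members, 22 (19.3%) were under 1000 bp, as were 10.02% of all genes. The rule did not use length itself, but CPM is not scaled by length, and the rule was met more often at low CPM. No comparison matched for level was made, and nothing is read from the lengths. The members of a pattern also share libraries, and the lengths overlapped widely.

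**Figure D5:**
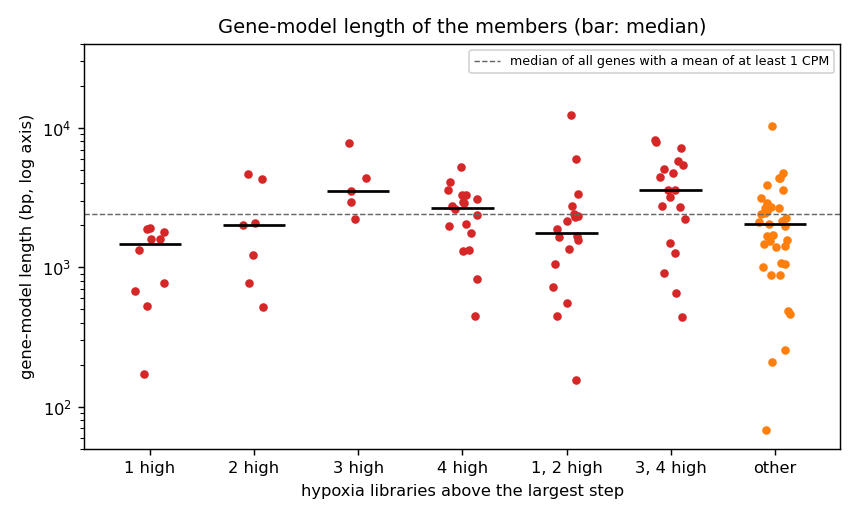
Gene-model length (log axis) of each member by the hypoxia libraries above the largest step, with a bar at each median and a dashed line at the median of all genes, 2414 bp. Points range from 68 bp to 12429 bp, and the groups overlap.

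The 4 shortest models did not share one pattern. The 171 bp gene had 0.142 to 0.209 CPM in normoxia and 5.98, 1.24, 0.114 and 0.257 CPM in hypoxia. The 156 bp gene had 0.192 to 0.461 CPM in normoxia and 5.40, 2.46, 0.153 and 0.353 CPM in hypoxia, and the 210 bp gene 0.288 to 0.390 CPM and 3.75, 1.49, 0.267 and 1.28 CPM. These 3 were near the floor in normoxia, highest in hypoxia 1 and lowest in hypoxia 3. The 156 bp gene (log2 fold change 2.66 ± 0.91 SE; adjusted p = 0.0464 by edgeR) and the 210 bp gene (2.44 ± 0.63; adjusted p = 0.0148) were called higher. The 68 bp gene, an abundant one, was lowest in hypoxia 1 and highest in hypoxia 4, with 127, 170, 157 and 95.1 CPM in normoxia and 26.6, 94.7, 160 and 172 CPM in hypoxia. Models this short are counted from few positions, and reads shared with other genes cannot be told apart in these values.

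With the groups exchanged, the rule found 12 genes (0.0947%) that were steady between hypoxic hearts and spread in normoxia by 6.05 to 23.0 times. In 9 of these 12, normoxia 2 was the highest and normoxia 4 the lowest library, whereas the extremes of the members were shared among all 4 hypoxic hearts. As over all genes the ratio within a group was wider in hypoxia than in normoxia (medians 1.42 and 1.20), the 114 and the 12 were drawn from groups of unequal spread.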

How the data were processed

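Heart RNA from 4 normoxic and 4 chronically hypoxic Sprague Dawley rats was, per the labels' protocols, extracted with Trizol and sequenced from NEBNext Ultra RNA libraries. For each library the authors deposited raw read counts per gene and, in another table, FPKM values. Per the submitters' processing notes the build was rn6, and the tools were bcl2fastq, HTSeq 0.6.0, HISAT2 2.1.0 and Bowtie2 2.2.3. The annotation, the strand setting and the handling of multiply matching reads were not given in the sources used here.

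CPM was computed from the deposited counts and the table totals. Group differences were fitted with edgeR 4.0.16 (R 4.3.3; TMM scaling, filterByExpr with a minimum count of 10, quasi-likelihood test, group as the only term, adjusted p under 0.05 over all genes tested). Alternatives used DESeq2 1.42.0, limma 3.58.1, other scalings, filters and limits of the rule, and left out each library in turn. The rule was tested on simulated counts without variation between animals, with planted genes more abundant than most members. The fit was tested on simulated counts with the same dispersion for every gene. Neither test covers scarce genes chosen for their spread, as most members were. Counting intervals are exact conditional binomial intervals at 95% and cover counting error only. Python 3.11.15 with numpy 2.4.6, pandas 2.3.3, scipy 1.17.1 and matplotlib 3.10.9 was used.

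The members and lists were chosen with earlier results of these data known. The members described singly were to be those with the widest ratios, the highest levels, the extremes in each hypoxia library and those next to the limit; further ones were taken after their values were seen. With no gene names (gene table of assembly GRCr8), the gene lists were not run, and only the 2 largest called changes in each direction are given by ID. No sequence or genome position could be matched to the members.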

Additional observations from a re-analysis of the deposited data

Results flagged for a closer look

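For 36 members and for 4 summary values per library, the 4 values of each group were examined for a library standing apart, meaning that its gap to the nearest of the others, as a share of the group's range, exceeded Dixon's 95% limit for 4 samples. Chance alone marks about 5% of groups, and 7 of the 80 examined were marked. The 5 in hypoxia come from members chosen for their spread in hypoxia.

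In 4 of these 5 hypoxia 4 stood apart. It held 213 CPM of the 5269 bp gene against 23.3 to 30.2 CPM in the other hypoxic hearts, and 195 CPM of the 1973 bp gene against 19.1 to 44.4 CPM. It held 12.04 CPM of the 2912 bp gene against 0.684 to 1.44 CPM, and 6.004 CPM of the 3103 bp gene against 0.309 to 0.686 CPM. In the fifth, hypoxia 1 held 1.82 CPM of the 1931 bp gene against 0 to 0.218 CPM.

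In normoxia, library 2 stood apart for the 672 bp gene, at 180 CPM against 77.3 to 82.2 CPM, and for the 4320 bp gene, at 2.98 CPM against 2.12 to 2.26 CPM.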

How the results depend on the processing

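The number of genes that meet the rule followed its limits. It was 246 with a hypoxia ratio of at least 4, 68 with at least 8 and 47 with at least 10. It was 192 with a mean of at least 0.5 CPM, 71 with at least 2 and 40 with at least 5. Leaving out 1 library gave 75 to 132 genes, the lowest without hypoxia 1. TMM scaling gave 115 genes, DESeq2 size factors 113 and thinning to the smallest library total 116, of which 105, 105 and 109 were among the 114. Counts of members by highest library, by pattern and by position against the normoxia range stayed within 1.5 times under these 3 scalings, in 45 of 45 cases. The patterns counted were each hypoxia library alone high, hypoxia 1 and 2 high, and hypoxia 3 and 4 high. Other patterns, and the shares over all genes, were not examined in this way.

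Called members numbered 19 to 43 when 1 library was left out, against 29 with all. Calls over all genes then numbered 3315 to 4758, against 4693 with all. DESeq2 called 35 members (23 higher, 12 lower), and 17.4% of all genes higher and 14.6% lower. Among the called members, the share called higher was 65.5% in edgeR, 16.0% in limma-voom, 53.1% with library totals alone and 23.8% with log2(FPKM + 1). The cause was not tested. Over all genes the share called higher was 53.6% in edgeR, 50.7% in limma-voom, 26.9% with library totals and 24.4% with log2(FPKM + 1). For the 4 genes given by ID, 56 of 59 alternative values kept their direction and call and 3 kept the direction but not the call.

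With the replicate number as a block, 20 members were called, 9 higher and 11 lower, and 3841 genes in all against 4693. No pairing by number was seen in the values: deviations of same-numbered libraries correlated at -0.0157, -0.0847, -0.0813 and 0.0187, and 0 of the 4 numbers matched best with itself. With so few libraries this cannot show whether animals of the same number were matched, and the labels do not say. Counts limit the ratio in the 40 of 114 members that had fewer than 10 counts in their lowest hypoxia library.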
